A study of Mus musculus with 26 samples.

Results

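Cadherins and protocadherins are membrane proteins that hold cells together in the presence of calcium. Their messenger RNA was described here in 2 brain regions of aged mice, some of them transgenic for APP, the amyloid precursor protein, and some non-transgenic. The members were the genes whose symbol in the array's annotation is Cdh followed by a number other than 5, or starts with Pcdh. Cdh5, the cadherin of blood vessels, was not a member. There were 55 such genes among 18194 genes with a probe set of their own, and of several probe sets for a gene the brightest on average over the 26 arrays was used. Of the 55, 49 passed a filter on low values, which kept 14941 genes with a mean log2 level of at least 4.33. The members comprised 5 classical type I cadherins, 10 of type II, 5 other cadherins, 4 delta-1, 5 delta-2 and 3 other non-clustered protocadherins, and 23 clustered protocadherins. Of the clustered genes, 22 were Pcdhb genes and the other was Pcdhgc4.

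Messenger RNA had been measured on Affymetrix arrays in dissected entorhinal cortex and hippocampus, and the groups were the same in both regions. APP transgenic mice had received a lentivirus in the entorhinal cortex. It was for brain-derived neurotrophic factor (BDNF), a secreted growth factor of neurons (n = 4), or for green fluorescent protein (GFP), a marker protein (n = 4). Non-transgenic mice had received the GFP virus (n = 2) or a sham lesion (n = 3). Tissue was taken 4 weeks after infection, and all 26 arrays are labelled as from aged animals. The labels used here name neither the transgenic line nor the promoter that drives APP, and they do not say which entorhinal and hippocampal arrays came from the same mouse. The design sets regions, genotypes and vectors against each other. GFP is the treatment that both genotypes received, and no non-transgenic mouse received BDNF.

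Classical cadherins bind the same or a similar cadherin on the neighbouring cell, and their inner ends are held to actin by catenins. Type II cadherins mark particular sets of neurons and help them to choose partners. Delta protocadherins bind more weakly and act on dendrites, axon growth and synapse number. Clustered protocadherins lie in arrays of variable exons, from which each neuron expresses a few, so that its branches can tell themselves from those of other neurons. In the adult hippocampus and cortex the members are known for patterns that follow cell layers and circuits.

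The means of the dentate and cortical marker lists went with the dissected region. The mean log2 level of 7 dentate granule cell markers was 8.34 to 9.08 on the hippocampal arrays and 5.99 to 6.57 on the entorhinal arrays, and that of 7 cortical markers was 9.46 to 9.74 in entorhinal cortex and 8.61 to 8.98 in hippocampus. These marker ranges did not overlap between the regions. Calb1 of the dentate list was nevertheless called higher in entorhinal cortex (0.482), against 6 called lower. Fezf2 of the cortical list was called lower there (-0.465), against 5 higher. Of 7 markers of the hippocampal CA fields, Wfs1 was called higher there (0.778) and 5 lower. Markers of thalamus and striatum also averaged higher in entorhinal cortex, at 7.40 to 7.76 against 6.91 to 7.29. Of the 6 tested, 4 were called higher there and 2 lower, Prkcd (-0.737) and Drd2 (-0.266). Some arrays stood apart in other cells' genes. The mean of 10 oligodendrocyte markers was 7.17 in entorhinal BDNF replicate 3 and 7.33 in entorhinal non-transgenic GFP replicate 2, while the median was 8.39 in entorhinal cortex and 9.71 in hippocampus. Choroid plexus markers averaged 8.36 in hippocampal sham replicate 1, where the hippocampal median was 5.5. Leaving out these 3 arrays called 25 members between regions and 22, 22, 11 and 17 within the conditions, in place of 23 and of 20, 22, 14 and 17. Within a region it left no member called. Arrays high in lymphocyte markers were not among the 3 left out. The mean of these markers was 8.30 in entorhinal non-transgenic GFP replicate 1 and 8.22 in entorhinal transgenic GFP replicate 4. It was 7.96 in hippocampal transgenic GFP replicate 2, and 7.71 and 7.64 on the hippocampal non-transgenic GFP arrays. The medians were 5.86 in entorhinal cortex and 5.97 in hippocampus. Xist, the X-inactivation transcript, was high on all non-transgenic arrays and on 2 of 4 arrays of each transgenic group, so genotype and sex composition are partly mixed. These are whole-tissue values, in which fewer cells of a type and less RNA per cell cannot be told apart.

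The regions differed in many members, with the strongest contrast in Pcdh20. In one limma fit over all arrays, the mean of the 4 entorhinal group means was set against that of the 4 hippocampal ones, and a gene was called when its Benjamini-Hochberg adjusted p over all tested genes was under 0.05. Of the 49 members tested, 23 were called (46.9%), which is near the 51.8% of all genes tested. Of the 49, 14 were called higher in entorhinal cortex, against 3075 of 14941 genes (20.6%), and 9 higher in hippocampus, against 4671 (31.3%). The values of entorhinal and hippocampal arrays did not overlap at all for 11 of the 49, against 1588 of 14941 genes (10.6%). The median difference, entorhinal minus hippocampal, was 0.041 over the members and -0.034 over all genes on the log2 scale, where 1 unit is a 2-fold difference. The median size of the difference was 0.198 for the members and 0.144 for all genes. The total called says nothing particular about the family. The split by direction and the count without overlap lay further from the shares of all genes, and this was not tested. The individual genes, with their sizes and directions, are given below by role.

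**Figure D1:**
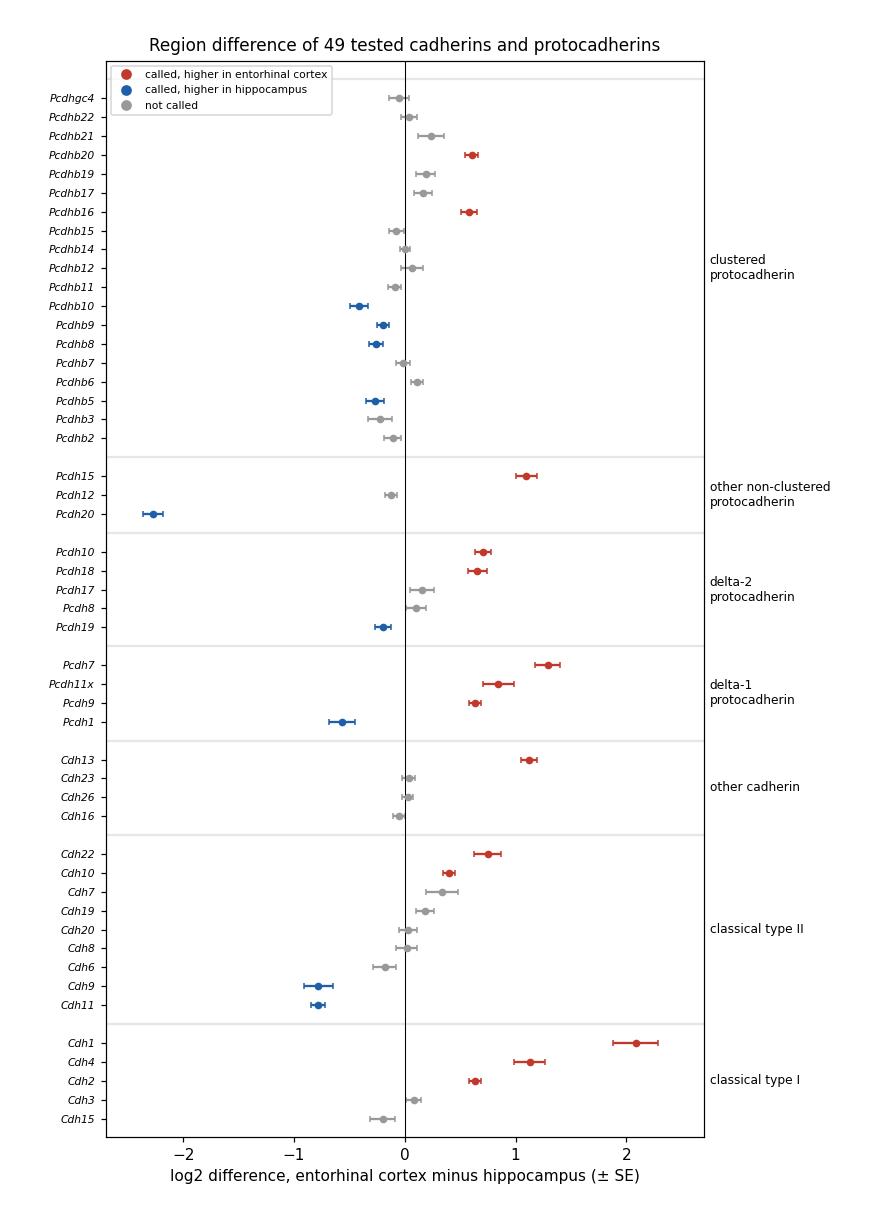
Log2 difference between entorhinal cortex and hippocampus for the 49 tested members, by role, with the standard error as the bar. Points right of 0 were higher in entorhinal cortex and points left of 0 in hippocampus, and called members are coloured. The clustered genes are in chromosome order from bottom to top, with Pcdhgc4 last. Pcdh20 lies farthest to the left at -2.27 and Cdh1 farthest to the right at 2.08.

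Promoter sequences were matched by symbol in a RefSeq table of build GRCm38.p6, which held 20 of the 55 members. The 250 bases before the start site are shown, 5′ to 3′ on the gene's strand, for the 2 matched members with the largest called region difference in each direction, leaving out genes on the chromosome of the protocadherin clusters. Pcdh20 and Cdh9 were higher in hippocampus, and Pcdh7 and Pcdh15 in entorhinal cortex. Capitals mark CANNTG, the E-box letters, which read the same on both strands.
Pcdh20, chr14:88471397-88471646, - strand: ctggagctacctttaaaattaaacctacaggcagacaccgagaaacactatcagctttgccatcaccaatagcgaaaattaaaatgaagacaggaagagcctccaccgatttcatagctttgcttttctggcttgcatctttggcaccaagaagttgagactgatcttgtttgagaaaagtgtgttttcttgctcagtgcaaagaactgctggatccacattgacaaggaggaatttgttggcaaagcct
Cdh9, chr15:16728665-16728914, + strand: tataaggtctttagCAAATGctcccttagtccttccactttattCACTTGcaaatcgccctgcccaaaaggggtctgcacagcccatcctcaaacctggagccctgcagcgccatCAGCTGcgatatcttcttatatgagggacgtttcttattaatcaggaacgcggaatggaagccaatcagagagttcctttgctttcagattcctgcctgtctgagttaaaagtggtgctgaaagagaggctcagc
Pcdh7, chr5:57717831-57718080, + strand: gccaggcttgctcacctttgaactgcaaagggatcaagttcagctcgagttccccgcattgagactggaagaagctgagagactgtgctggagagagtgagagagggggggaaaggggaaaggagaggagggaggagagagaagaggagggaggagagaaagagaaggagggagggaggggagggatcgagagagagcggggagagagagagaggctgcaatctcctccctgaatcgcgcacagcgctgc
Pcdh15, chr10:73821617-73821866, + strand: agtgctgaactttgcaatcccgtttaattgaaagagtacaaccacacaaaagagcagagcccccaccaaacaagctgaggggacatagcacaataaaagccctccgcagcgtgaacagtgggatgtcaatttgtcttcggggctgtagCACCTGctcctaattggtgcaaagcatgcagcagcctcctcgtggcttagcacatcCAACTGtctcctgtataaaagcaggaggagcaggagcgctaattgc
The windows for Pcdh20 and Pcdh7 held no CANNTG. That for Cdh9 held 3, at -236, -206 and -135 from the start site, and that for Pcdh15 held 2, at -102 and -46. CANNTG occurred in any window of 10 of the 20 matched members (50%) and of 69.3% of 27025 genes, with windows of the same length. A gene could have several windows, and more windows gave more chances of a match. The sequences shown are the first window of each gene. The more specific CAGGTG, on either strand and itself a CANNTG, was in 10% of the members and 19.4% of all genes. TATAAA, also on either strand, was in 10% and 14.3%. The GC content ran from 42.4% for Pcdh20 to 58.4% for Pcdh7. These are descriptions of letters in a window, and a match is not a binding site.

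Among the classical type I cadherins, Cdh2, Cdh4 and Cdh1 were higher in entorhinal cortex. Cdh2 (N-cadherin), the main cadherin of excitatory synapses, had a lowest, median and highest log2 level of 11.23, 11.46 and 11.66 over the 13 entorhinal arrays and of 10.60, 10.75 and 11.19 over the 13 hippocampal ones. Every entorhinal array was above every hippocampal one, with a difference of 0.63 ± 0.05 (SE; limma adjusted p = 1.03e-09). Cdh4 (R-cadherin), which acts in retinal and forebrain axons, ran from 7.59 through 8.32 to 9.32 in entorhinal cortex and from 7.01 through 7.24 to 7.54 in hippocampus. Its regions did not overlap either, although the entorhinal arrays were spread widely. The Cdh4 difference was 1.13 ± 0.14 (limma adjusted p = 4.55e-07), and 0.88 without the 3 arrays that stood apart. Cdh3 (P-cadherin) and Cdh15 (M-cadherin of muscle) were dim, with medians between 5.04 and 5.94, and were not called.

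Cdh1 (E-cadherin), the cadherin of epithelia, had the largest measured entorhinal excess of the members. Its level was 4.78 at the lowest, 6.40 at the median and 7.56 at the highest over the entorhinal arrays, and 3.57, 4.22 and 4.78 over the hippocampal arrays. The lowest entorhinal array reached the highest hippocampal one. The hippocampal median lies below the filter of 4.33, so Cdh1 was tested because of its entorhinal level, and it counts among the 14 higher members for that reason too. The difference of 2.08 ± 0.20 is measured against values at the dim end of the array. Markers of the meninges, the fibrous covering of the brain, were also mostly higher in entorhinal cortex. Of 12 meningeal markers, 10 were called higher in entorhinal cortex and 1 lower, with a median difference of 0.84. Their mean was 7.73 to 9.04 on entorhinal arrays and 7.28 to 8.01 on hippocampal arrays. Within entorhinal cortex the pair of arrays with the least Cdh1, BDNF replicate 3 at 4.78 and transgenic GFP replicate 3 at 5.43, also had the lowest meningeal means, 7.73 and 7.88. Sham replicate 2 was the highest in both, at 7.56 for Cdh1 and 9.04 for the markers. Between regions the levels did not always go together. The 3 hippocampal sham arrays had marker means of 7.90 to 7.93 with Cdh1 at 4.06 to 4.57. Entorhinal transgenic GFP replicate 3, at 7.88 for the markers, had Cdh1 at 5.43. The part of the meningeal signal in the Cdh1 difference was not tested.

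**Figure D2:**
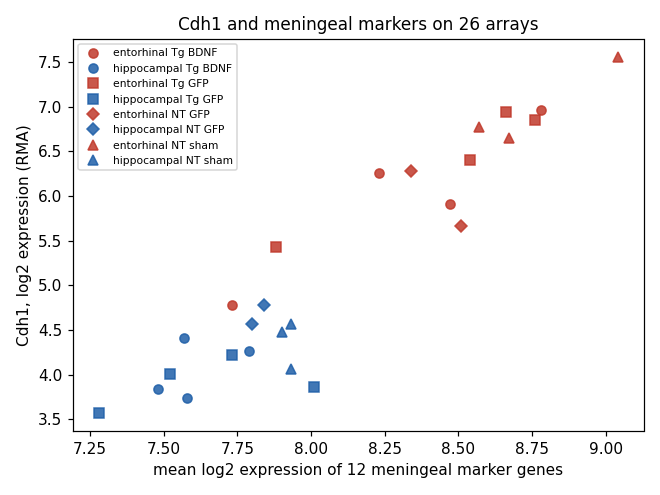
Log2 level of Cdh1 on each of the 26 arrays against the mean log2 level of 12 meningeal marker genes on the same array. Red points are entorhinal and blue points hippocampal, with a symbol for each condition. Hippocampal arrays sit at the lower left, between 3.57 and 4.78 for Cdh1, and entorhinal arrays extend to 7.56 for Cdh1 and 9.04 for the markers.

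The type II cadherins, of which 9 of 10 were tested, went in both directions. Cdh11, which is found in many principal neurons and in mesenchyme, had a lowest, median and highest level of 9.41, 9.91 and 10.05 in entorhinal cortex and 10.31, 10.64 and 10.82 in hippocampus, with no overlap. The difference was -0.78 ± 0.06 (limma adjusted p = 7.67e-10), and the gene's other probe set above the filter read -1.12. Cdh9, known for its place at the mossy fibre synapse between dentate granule cells and area CA3, had the same mean difference with far more spread, -0.78 ± 0.13 (limma adjusted p = 2.4e-05). It ran from 8.81 through 9.38 to 10.22 in entorhinal cortex and from 9.91 through 10.26 to 10.65 in hippocampus. The overlap came from entorhinal BDNF replicate 3 at 10.01 and entorhinal non-transgenic GFP replicate 2 at 10.22, which are also the arrays with the lowest oligodendrocyte markers. Without the 3 arrays that stood apart the Cdh9 difference was -0.96. The part of the dissection in this was not tested.

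Cdh10 and Cdh22 were higher in entorhinal cortex. Cdh10 was 9.38 to 9.76 there and 8.93 to 9.37 in hippocampus, a small difference of 0.40 ± 0.05 (limma adjusted p = 9.2e-07) with no overlap. The gene's 3 other probe sets above the filter read 0.14, 0.11 and 0.19, and none was called (adjusted p-values of 0.0638 to 0.169). Cdh22 ran from 8.11 through 8.70 to 9.31 in entorhinal cortex and from 7.72 through 7.93 to 8.27 in hippocampus. Its difference was 0.75 ± 0.12 (limma adjusted p = 2.05e-05), and 0.54 without the 3 arrays that stood apart (3.42e-05). The regions overlapped. Entorhinal BDNF replicates 1, 2 and 4 at 8.18, 8.15 and 8.27 and non-transgenic GFP replicate 1 at 8.11 were no higher than hippocampal transgenic GFP replicate 1 at 8.27. Cdh8, a marker of subsets of cortical and hippocampal neurons, had a difference of 0.02 by its chosen probe set and was not called, while its other probe sets gave -0.38 and -0.30, both called. Cdh7 had a difference of 0.34 (limma adjusted p = 0.0516) by the chosen probe set, and its other probe sets gave 1.09 and 0.61, both called. For these genes the reading depends on the probe set. Cdh6, Cdh19 and Cdh20 were not called, and Cdh18 was below the filter in both regions. The Cdh19 difference depended on the arrays used, at 0.19 with all of them and 0.31 without the 3 that stood apart.

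Of the other cadherins, Cdh13 alone was called among the 4 that were tested. Cdh13 (T-cadherin) lacks the inner domain of the classical cadherins and is held to the membrane by a lipid anchor. Its level was 9.14, 9.50 and 9.75 (lowest, median and highest) in entorhinal cortex and 8.15, 8.31 and 8.69 in hippocampus. The regions were clearly apart, with a difference of 1.12 ± 0.07 (limma adjusted p = 2.47e-11). Further Cdh13 probe sets gave 0.81 and 0.63. Cdh16 (the kidney cadherin), Cdh23 (a part of the tip link of hair cells) and Cdh26 had medians of at most 4.73 in both regions, close to the filter, and Cdh17 was below it.

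All 4 delta-1 protocadherins, which carry a site for protein phosphatase 1 in their inner domain, were called. Pcdh7 had a lowest, median and highest level of 9.08, 9.91 and 10.44 in entorhinal cortex and of 8.17, 8.65 and 9.34 in hippocampus. Its difference was 1.29 ± 0.11 (limma adjusted p = 2.87e-09), and the gene's other probe set above the filter read 0.80, also called. The regions overlapped through entorhinal BDNF replicate 1 at 9.08 and hippocampal non-transgenic GFP replicate 2 at 9.34. Pcdh9 was even within each region, 10.69 to 11.09 against 9.94 to 10.44, and its difference was 0.63 ± 0.05 (limma adjusted p = 1.72e-09). Pcdh11x, which lies on the X chromosome, was 7.37 to 8.32 in entorhinal cortex and 6.18 to 7.27 in hippocampus, a difference of 0.84 ± 0.14 (limma adjusted p = 2.65e-05). Neither Pcdh9 nor Pcdh11x overlapped between regions. Pcdh1 went the other way at a low level. It was 3.45 to 4.91 in entorhinal cortex and 4.57 to 5.42 in hippocampus, with a difference of -0.57 ± 0.11 (limma adjusted p = 0.00026).

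The 5 delta-2 protocadherins divided. Pcdh10 was 9.50 to 9.95 in entorhinal cortex and 8.81 to 9.38 in hippocampus, a difference of 0.71 ± 0.07 (limma adjusted p = 2.3e-08) with no overlap. The gene's other probe sets read 0.07 to 0.97. That at 0.07 was not called (limma adjusted p = 0.414) and the rest were. Pcdh18 was higher by 0.66 ± 0.08 (limma adjusted p = 7.47e-07), with slight overlap. Pcdh19, the X-linked gene whose loss causes an epilepsy, was lower in entorhinal cortex by its brightest probe set, at -0.20 ± 0.07 (limma adjusted p = 0.0219). That call did not survive averaging the gene's probe sets (-0.02), and another probe set was called in the opposite direction at 0.29, so no direction can be given for Pcdh19. Pcdh8 (arcadlin), induced by synaptic activity, and Pcdh17, found at synapses of the basal ganglia, were among the brighter members, with entorhinal and hippocampal medians of 11.24 and 11.17 for Pcdh8 and 9.70 and 9.53 for Pcdh17. Their differences of 0.10 and 0.15 were not called, and other probe sets read -0.13 for Pcdh8 and -0.18 for Pcdh17.

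The other non-clustered protocadherins held the most sharply divided member. Pcdh20 had a lowest, median and highest level of 8.03, 8.64 and 9.09 in entorhinal cortex and of 10.72, 10.90 and 11.08 in hippocampus. No entorhinal array came near a hippocampal one. The difference was -2.27 ± 0.09 (limma adjusted p = 7.29e-15), and its other probe set gave -2.53. Pcdh15, a partner of Cdh23 in the tip link, ran from 5.72 through 6.07 to 6.30 in entorhinal cortex and from 4.47 through 4.96 to 5.38 in hippocampus. It was higher in entorhinal cortex on every array, by 1.10 ± 0.10 (limma adjusted p = 2.66e-09). The other Pcdh15 probe set above the filter read only 0.31 and was called (limma adjusted p = 0.000429). Cdh23 itself was 4.45 to 5.01 in entorhinal cortex and 4.52 to 4.90 in hippocampus. Pcdh12, an endothelial protocadherin, was near the filter and was not called, at -0.12. Its other probe set above the filter read 0.13 and was called (limma adjusted p = 0.0272), so no direction can be given for Pcdh12.

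**Figure D3:**
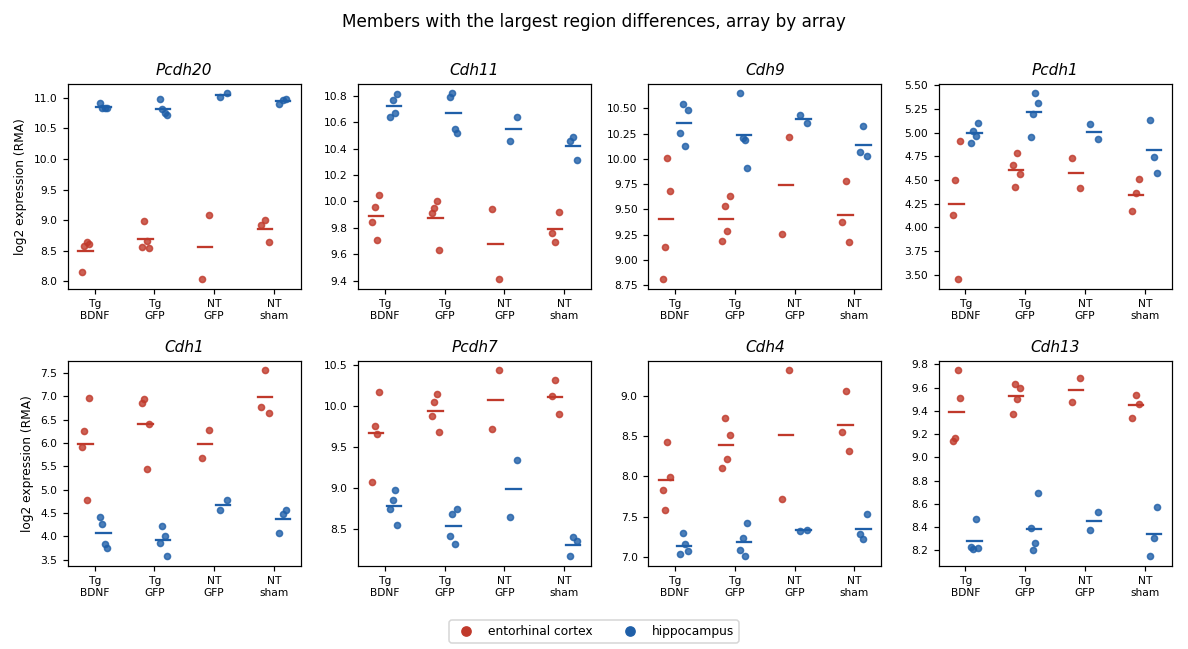
Log2 level on each array for the 4 members with the largest called difference in each direction, by condition, with entorhinal arrays in red and hippocampal arrays in blue. Horizontal lines are group means (n = 4, 4, 2 and 3 from left to right, in each region), and each panel has its own scale. Pcdh20, Cdh11, Cdh9 and Pcdh1 lie higher in hippocampus, and Cdh1, Pcdh7, Cdh4 and Cdh13 in entorhinal cortex, in every condition.

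Of the 23 clustered members, 19 were tested and 6 were called. Pcdhb20 was 8.34 to 8.79 in entorhinal cortex and 7.79 to 8.28 in hippocampus, with no overlap and a difference of 0.60 ± 0.06 (limma adjusted p = 8.17e-09). Pcdhb16 was higher in entorhinal cortex by 0.58 ± 0.07 (limma adjusted p = 6.44e-07) with slight overlap, and its other probe set above the filter read 0.10 and was not called. Pcdhb10 (-0.41 ± 0.08), Pcdhb5 (-0.27 ± 0.08), Pcdhb8 (-0.26 ± 0.06) and Pcdhb9 (-0.20 ± 0.06) were higher in hippocampus, with limma adjusted p-values from 0.000182 to 0.00621 and overlapping arrays. The values were then set in order along the cluster. Of the 18 tested Pcdhb genes in chromosome order, 8 of the first 9 (Pcdhb2 to Pcdhb11) had values below 0 and 8 of the last 9 (Pcdhb12 to Pcdhb22) had values above 0, with Pcdhb14 at 0.00 counted among these. Within conditions the counts were 8 and 8 in transgenic BDNF, 8 and 7 in transgenic GFP, 6 and 8 in non-transgenic GFP and 6 and 6 in sham. The 4 called lower lay in the first stretch, and the 2 called higher in the last. Spearman's rho between the order and the difference was 0.71 over the 18 genes, and 0.65, 0.70, 0.56 and 0.55 within transgenic BDNF, transgenic GFP, non-transgenic GFP and sham. These genes share arrays and have similar sequences, so the rho is a description, and the order was looked at after the values were seen. Pcdhb1, Pcdhb4, Pcdhb13 and Pcdhb18 were below the filter, and no Pcdha gene had a probe set of its own.

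The region differences were next taken within each condition, from the same fit. The conditions share no arrays, but they share the estimate of each gene's spread, so their calls are not independent. Within transgenic BDNF 20 of the 49 members were called, against 29.3% of all genes. Within transgenic GFP it was 22, against 30.5%. Within non-transgenic GFP, with 2 arrays a region, it was 14, against 12.6%, and leaving out an array in turn gave 6 to 15, with 9 called without entorhinal replicate 1 and 6 and 9 without hippocampal replicates 1 and 2. Within sham it was 17, against 29.3%. As shares of the 49 members, the counts in these 4 conditions were 40.8%, 44.9%, 28.6% and 34.7%. The sign was the same in all 4 conditions for 32 of the 49 members (65.3%) and for 61.4% of all genes. It was the same for all 23 members called over the whole series and for 94.3% of all genes called so. The whole-series fit uses the same arrays, so this agreement of signs is largely fixed by that choice. In each of the 4 conditions 13 members were called (26.5%), against 10.3% of all genes. These were Cdh2, Cdh4, Cdh10, Cdh11, Cdh13, Pcdh7, Pcdh9, Pcdh10, Pcdh15, Pcdh18, Pcdh20, Pcdhb16 and Pcdhb20. With the gene's probe sets averaged, Pcdhb16 was 0.19 in transgenic BDNF (adjusted p = 0.116) and 0.22 in non-transgenic GFP (0.332), neither called. Pcdh12 was called within transgenic GFP, at -0.32, but not over the whole series. Over the whole series another of its probe sets was called in the opposite direction.

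The stability of the difference varied by gene. Cdh13 was the most even of the strongly different members, at 1.10 to 1.14 in the 4 conditions. By its chosen probe set Pcdh15 ran from 1.02 to 1.20. Pcdh20 ran from -2.49 to -2.10, and Cdh11 from -0.87 to -0.63. Pcdh7 was more variable, with 0.88 in transgenic BDNF and 1.80 in sham, as was Cdh2, with 0.40 and 0.89. Cdh1 ranged from 1.29 in non-transgenic GFP to 2.63 in sham. Some calls in non-transgenic GFP were lost without the arrays that stood apart, of which entorhinal replicate 2 belongs to that condition. Without them Cdh4, Cdh22, Pcdh7 and Pcdhb16 differed by 0.40, 0.30, 0.72 and 0.66, and none of the 4 was called. In sham, Pcdh11x then differed by 0.60 and was not called, against 0.93 with all arrays.

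**Figure D4:**
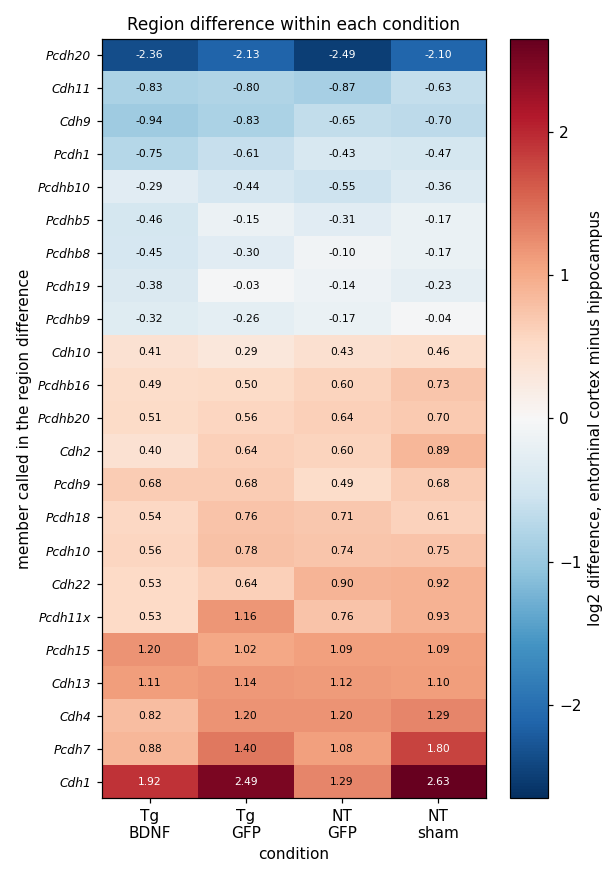
Log2 difference between entorhinal cortex and hippocampus within each of the 4 conditions for the 23 members called over all arrays. Blue cells were higher in hippocampus and red cells in entorhinal cortex. Each member keeps its colour across the row, from Pcdh20 at -2.49 to -2.10 down to Cdh1 at 1.29 to 2.63.

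Whether the region differences themselves changed with genotype or BDNF was tested by interaction terms. For region by genotype no member was called, and no gene of the 14941 (0.00%). At an unadjusted p under 0.05 there were 2 members and 788 genes, and the smallest limma adjusted p of a member was 0.922. The members with the smallest p were Cdh16 at -0.29 ± 0.10 and Cdh2 at -0.22 ± 0.10, where a negative value means a smaller entorhinal excess in transgenic mice. For region by BDNF no member and no gene (0.00%) was called, with 1 member and 602 genes under an unadjusted p of 0.05. Cdh3 at -0.38 ± 0.16 was that member (limma adjusted p = 0.996). For Pcdh7 the interaction was -0.30 ± 0.22 with genotype and -0.51 ± 0.28 with BDNF.

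Genotype was compared within each region, with GFP given to both. In entorhinal cortex no member was called, against 0.0134% of all genes, and in hippocampus none, against 0.00669%. At an unadjusted p under 0.05 limma gave 1 member and 373 genes in entorhinal cortex, and 5 members and 659 genes in hippocampus. In entorhinal cortex the member was Pcdhb7, at 7.92, 8.01, 8.04 and 7.99 on the transgenic arrays and 8.17 and 8.23 on the non-transgenic ones, lower by 0.21 ± 0.09 with a limma adjusted p of 1. In hippocampus Cdh1 was 3.86, 4.22, 4.01 and 3.57 on the transgenic arrays and 4.57 and 4.78 on the non-transgenic ones. The groups did not overlap, but all 4 transgenic arrays lie below the filter of 4.33. The difference of -0.76 ± 0.21 had a limma adjusted p of 0.988. Pcdh20 in hippocampus was -0.23 ± 0.08, Pcdhb6 0.28 ± 0.10 and Pcdh7 -0.45 ± 0.18, with the same adjusted p.

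Taking all transgenic against all non-transgenic arrays of a region used more arrays, but the treatments then differed between genotypes. Again no member was called in entorhinal cortex (0.0134% of all genes) or in hippocampus (0.0469%). At an unadjusted p under 0.05 limma gave 5 members and 1539 genes in entorhinal cortex, and 7 members and 742 genes in hippocampus. In entorhinal cortex the smallest p-values belonged to Pcdhb9 at -0.39 ± 0.06 (limma adjusted p = 0.0962), Pcdhb3 at 0.54 ± 0.17 (0.442) and Cdh2 at -0.20 ± 0.06 (0.442). In hippocampus they belonged to Cdh1 at -0.54 ± 0.14 (limma adjusted p = 0.553), Pcdhb3 at 0.41 ± 0.12 (0.745) and Cdh11 at 0.21 ± 0.07 (0.828). The hippocampal Cdh1 values, 3.57 to 4.78, lie about the filter of 4.33. Beside them, all 12 meningeal markers were lower in transgenic hippocampus, with a median difference of -0.26 and none called. Their part in it was not tested. Both genotype comparisons use the same transgenic and non-transgenic GFP arrays.

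BDNF against GFP in transgenic mice called no member and no gene (0.00%) in either region. At an unadjusted p under 0.05 limma gave 1 member and 580 genes in entorhinal cortex, where the virus had been placed, and 2 members and 793 genes in hippocampus. The entorhinal member was Pcdhb9, at 8.35, 8.38, 8.14 and 8.52 with BDNF and 8.65, 8.63, 8.53 and 8.48 with GFP. The groups overlapped, and the difference was -0.23 ± 0.08 (limma adjusted p = 0.998). In hippocampus Cdh2 was 10.96, 11.04, 10.91 and 10.95 with BDNF and 10.69, 10.97, 10.66 and 10.60 with GFP, again overlapping through GFP replicate 2. Its difference was 0.24 ± 0.10 (limma adjusted p = 0.901), and that of Cdh3 was 0.16 ± 0.07 with the same adjusted p. For Cdh2, Cdh8, Cdh9, Cdh11, Cdh13, Pcdh8, Pcdh17, Pcdh19 and Pcdh20, adhesion genes followed in every comparison, BDNF differences lay between -0.23 and 0.18 in entorhinal cortex and between -0.10 and 0.24 in hippocampus.

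GFP against sham in non-transgenic mice, a comparison of 2 with 3 arrays, called no member in entorhinal cortex (0.0201% of all genes) or hippocampus (0.0335%). At an unadjusted p under 0.05 limma gave 4 members and 441 genes in entorhinal cortex, and 11 members and 1344 genes in hippocampus. The 4 entorhinal members were Pcdhb7, Pcdhb3 (0.59), Pcdhb9 (-0.45) and Cdh16 (-0.34). In entorhinal cortex Pcdhb7 was 8.17 and 8.23 with GFP and 7.76, 7.93 and 7.68 in sham, a difference of 0.41 ± 0.09 with a limma adjusted p of 1. In hippocampus Pcdh7 had the smallest p, at 8.65 and 9.34 with GFP and 8.17, 8.41 and 8.36 in sham, a difference of 0.68 ± 0.19 (limma adjusted p = 0.401). Hippocampal Pcdhb3 was 0.55 ± 0.19 (limma adjusted p = 0.466), Pcdhb12 -0.47 ± 0.17 and Cdh7 -0.50 ± 0.19 (both 0.496). This comparison shares the non-transgenic GFP arrays with the comparison of genotypes.

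A test over the 4 conditions of a region called 1 member, Pcdhb9 in entorhinal cortex. Pcdhb9 encodes a clustered protocadherin of the beta group. Its entorhinal levels were 8.35, 8.38, 8.14 and 8.52 in transgenic BDNF, 8.65, 8.63, 8.53 and 8.48 in transgenic GFP, 8.62 and 8.64 in non-transgenic GFP, and 9.10, 9.04 and 9.09 in sham. The 3 sham arrays were above all 10 arrays of mice given a virus. The moderated F was 25.75 (limma adjusted p = 0.0399), in a test that called 6 genes (0.0402%) and had 4 members and 910 genes at an unadjusted p under 0.05. Other genes moved with sham in entorhinal cortex. The mean of 6 oligodendrocyte precursor markers was 8.68, 8.80 and 8.71 in sham and 8.27 to 8.63 on the other 10 arrays. In GFP against sham, all 12 meningeal and all 8 endothelial markers were lower with GFP, at medians of -0.36 and -0.24, and all 5 lymphocyte markers were higher, at 0.76, none of them called. Their part in the Pcdhb9 result was not tested. The call was close to the threshold. It ended without the filter (adjusted p = 0.0516), without the arrays that stood apart (0.0555), after centring each array on its median (0.08), with Xist as a covariate (0.18) and when any of 11 of the 13 arrays was left out, transgenic BDNF replicates 3 and 4 being the exceptions, with limma adjusted p-values of 0.0203 to 0.375. In hippocampus Pcdhb9 was 8.66, 8.67, 8.53 and 8.79 in transgenic BDNF, 9.14, 8.89, 8.77 and 8.53 in transgenic GFP, 8.85 and 8.75 in non-transgenic GFP, and 9.23, 9.13 and 8.99 in sham. There the sham arrays overlapped transgenic GFP replicate 1 and the F test called no member (0.0736% of all genes). In that hippocampal test 9 members and 1089 genes had an unadjusted p under 0.05, and the smallest limma adjusted p of a member was 0.446, for Pcdhb3.

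Pcdhb3 and Pcdhb7, near Pcdhb9 in the same cluster, had their lower levels in sham, although neither was called. Entorhinal Pcdhb3 was 6.79, 6.68 and 7.66 in sham and 7.46 to 8.28 on the other 10 arrays, so that 1 sham array lay among the rest. Hippocampal Pcdhb3 was 7.61, 7.31 and 7.12 in sham and 7.77 to 8.40 on the other arrays, with no overlap. Entorhinal Pcdhb7 was 7.76, 7.93 and 7.68 in sham and 7.92 to 8.23 elsewhere, and hippocampal Pcdhb7 was 7.49, 7.83 and 7.78 in sham and 7.75 to 8.46 elsewhere. In the test over conditions the limma adjusted p of Pcdhb7 and Pcdhb3 was 0.768 in entorhinal cortex, and in hippocampus it was 0.679 for Pcdhb7. Their probe sets are for similar genes, and cross-hybridization within the family was not tested.

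**Figure D5:**
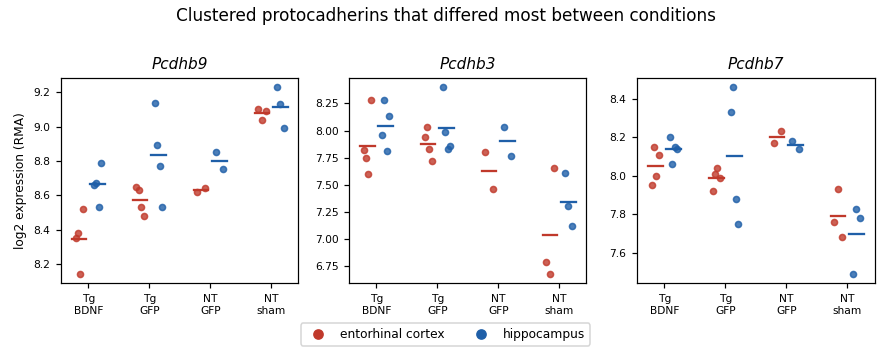
Log2 level of Pcdhb9, Pcdhb3 and Pcdhb7 on each array by condition, with entorhinal arrays in red, hippocampal arrays in blue and group means as lines. Each panel has its own scale. Sham arrays are the highest for entorhinal Pcdhb9, at 9.04 to 9.10, and tend to be the lowest for Pcdhb3 and Pcdhb7.

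The partners of cadherins also differed between regions, by the same fit and against the same 51.8% of genes. Of 16 tested catenins and junction adaptors, 5 were called higher in entorhinal cortex and 4 in hippocampus. The largest were Pkp2, a desmosomal plaque protein, at -2.95 ± 0.11, and Nectin3, an adhesion molecule of adherens junctions, at -1.74 ± 0.11, both higher in hippocampus. Afdn, which ties nectins to actin, was 0.52 and Ctnnd2, the neural delta-catenin, 0.49. Of 18 other members of the cadherin superfamily, 5 were called in each direction, with Dsc3, a desmosomal cadherin, at 2.61 ± 0.24 and Clstn2, a synaptic calsyntenin, at -0.98 ± 0.06. Fat1 and Fat3, giant cadherins of tissue polarity, were 0.51 and 0.47.

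Of 9 proteases that can cut cadherins or their stubs, 4 were called in each direction. Bace1, the beta-secretase, and Aph1b, a gamma-secretase subunit, were both 0.54 higher in entorhinal cortex. Psen2, the catalytic presenilin, was 0.32 higher, while Aph1a was -0.39. Of 21 effectors of protocadherins and regulators of their locus, 4 were called higher in entorhinal cortex and 8 in hippocampus. Ptk2b, a kinase that clustered protocadherins inhibit, was -1.12 ± 0.09, and Abi1, a part of the actin-regulating WAVE complex, was -0.51. Ctcf, the insulator protein that sets which clustered exon is used, was 0.59 ± 0.13, and the cohesin subunit Smc1a was -0.30. No gene of these 4 lists was called for genotype, BDNF, GFP against sham, any condition or an interaction.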

How the data were processed

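Values were log2 expression levels deposited by the authors as 1 table of 45101 probe sets on 26 arrays, made with RMA (background correction, quantile normalization and probe summary) per the submitters' processing notes. For the RMA version and the genome build, the sources used here state none. Array medians were 5.51 to 5.58, and no 2 arrays were identical. RMA gives the arrays a common distribution and compresses differences of dim probe sets, and the number of arrays limits the precision. No batch is named in the labels.

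The array's annotation gave 1 symbol to 34958 probe sets, several to 932 and no entry for 9211, and a probe set with several symbols named no gene. For each of 18194 genes the brightest probe set on average was kept, and genes under the 30th percentile (4.33) were left out. Of the members' chosen probe sets, 2 end in _x_at and 1 in _s_at, kinds that may also bind related genes, namely those of Pcdh8, Pcdhb14 and Pcdhb15. Fits were made in R 4.3.3 with limma 3.58.1, by lmFit and eBayes, over 26 arrays in 8 groups for comparisons between regions and over the 13 arrays of a region otherwise. All tests are 2-sided with Benjamini-Hochberg adjustment over 14941 genes and a threshold of 0.05, and errors are moderated standard errors. The fits were tested on simulated data.

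The members, roles, partner lists and marker lists were chosen with earlier results of these data known. Named by rule were called members with the largest differences, up to 10 per direction (for the region difference those without overlap and the largest of each role), the 2 smallest p-values where under 2 were called, and Cdh2, Cdh8, Cdh9, Cdh11, Cdh13, Pcdh8, Pcdh17, Pcdh19 and Pcdh20. Other members, the order along the Pcdhb cluster and single probe sets were described after their values were seen. The order came from a RefSeq gene table of GRCm38.p6.

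The labels call replicates biological. Replicate numbers did not pair arrays of the same condition between regions: of 13 same-numbered pairs, 3 had deviations correlated above 0.1, with a range of -0.49 to 0.48. Alternatives were no filter or a 50th percentile filter, averaged probe sets, a further quantile normalization, median centring, array weights, trended and robust eBayes, the Xist level as covariate, a replicate block, all 26 arrays in 1 fit, leaving out each array, and leaving out the 3 arrays that stood apart.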

Additional observations from a re-analysis of the deposited data

Results flagged for a closer look

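Single arrays that lay far from the rest of their group of 4 were sought by Dixon's criterion among 38 members named in some comparison. It marked 12 of 152 groups, and chance marks about 1 in 20. In entorhinal BDNF replicate 3, which had the lowest oligodendrocyte markers, Cdh22 was 9.05 while the other arrays were 8.15 to 8.27, and Cdh6 was 5.32 against 5.64 to 5.70. In entorhinal BDNF replicate 1, Pcdh20 was 8.15 against 8.58 to 8.64, and in replicate 2 Pcdhb22 was 5.88 against 5.62 to 5.64. Entorhinal transgenic GFP replicate 4 had a Pcdh10 level of 9.55 against 9.86 to 9.88.

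In hippocampal transgenic GFP replicate 1, Pcdhb10 was 6.54 against 5.99 to 6.03 and Pcdhb11 was 5 against 4.71 to 4.75. The same array was also the highest of its group for Pcdhb9 at 9.14 and Pcdhb3 at 8.40. Replicate 3 of that group had a Pcdhb8 level of 5.78 against 5.30 to 5.36. In hippocampal BDNF replicate 3, Cdh13 was 8.47 against 8.21 to 8.23 and Pcdhb5 was 4.58 against 5 to 5.05. In replicate 1 of that group Pcdh20 was 10.92 against 10.83 to 10.84, and in replicate 2 Pcdh8 was 11.27 against 11.20 to 11.21. The gaps for Pcdh20 and Pcdh8 in hippocampus are small and stand out because the other arrays lay so close together.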

How the results depend on the processing

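The count of members called between the regions, 23, was 19 to 28 under the alternatives to the filter, scaling and fit and 23 to 28 when single arrays were left out. Within conditions the counts were 15 to 22 in transgenic BDNF, 17 to 22 in transgenic GFP, 11 to 14 in non-transgenic GFP and 15 to 24 in sham, and leaving out arrays in non-transgenic GFP gave 6 to 15. Genotype, BDNF, GFP against sham and the interactions had 0 members called under every alternative run. The single call over the 4 entorhinal conditions went to 0 without a filter, with median centring, with the Xist covariate, without the arrays that stood apart and with the replicate block (adjusted p = 0.26 for Pcdhb9), and leaving out arrays gave 0 to 1. Between regions the replicate block was a correlation of same-numbered arrays of a condition. Within a region it was a term for the replicate number, shared by different conditions, which the labels do not tie together. The replicate block left the region difference at 23 members and changed no other count of called members by over 1.5 times. Over all genes it took the test over conditions in hippocampus from 11 genes to 6, the genotype comparison of all hippocampal arrays from 7 to 1 and the entorhinal one with GFP from 2 to 1. Signs turned for region differences that were not called. With the mean of the probe sets Cdh8 was called in the opposite direction, at -0.22 (adjusted p = 0.00456), and Pcdh17 was -0.01. Pcdh8 was -0.02 with that mean and -0.06 without the 3 arrays that stood apart. Leaving out single arrays gave -0.02 to 0.06 for Cdh8 and -0.01 to 0.21 for Pcdh8, and -0.07 to 0.47 for Cdh11 in the entorhinal genotype comparison with GFP, where it was also -0.07 without the arrays that stood apart. Among alternatives for named genes, 3838 kept direction and call, 130 lost the call, 1 gained it and 16 changed sign. Read 1 by 1, 21 of the 22 other probe sets of the members called between regions had the same sign, and 15 were called with it, while 1 was called in the opposite direction. Within a region, leaving out the arrays that stood apart was also added after seeing the data, as was reading probe sets singly, in which Pcdhb9 had an adjusted p of 0.0782 over the entorhinal conditions. The cause of these changes was not tested. A group of 2 arrays left with 1 is assumed to vary like the others.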
